A study of Rattus norvegicus with 6 samples.

Results

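The small leucine-rich proteoglycans (SLRPs) are a family of secreted matrix proteins, and 10 of their genes were chosen for description: fibromodulin (Fmod), decorin (Dcn), lumican (Lum), biglycan (Bgn), osteoglycin (Ogn), osteomodulin (Omd), Prelp, asporin (Aspn), keratocan (Kera) and podocan (Podn). The set was built around Fmod because its level was about 50% lower with the conduit, so the values of Fmod chose the set and are given as a description with no test. A symbol match found 8 of the 10 genes among the 23091 rows of the count table. Ogn and Podn matched no symbol and were not analysed here.

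The libraries came from regenerated sciatic nerve of wild-type (WT) male SD rats with a sciatic nerve defect. In the GDNF-Gel/HA-Mg group, 3 libraries called implant 1, implant 2 and implant 3 here, the defect received a nerve conduit with glial cell line-derived neurotrophic factor (GDNF). In the NC group, 3 libraries called NC 1, NC 2 and NC 3, the wound was closed with nothing implanted. With these 2 groups, an effect of GDNF and an effect of the conduit material cannot be told apart, and the labels used here give neither the age of the rats nor the time after surgery. The labels do not state whether each library is a separate rat. Any p-value therefore reflects the variation among the 3 libraries of a group, and part of that could be technical.

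SLRPs share a core of leucine-rich repeats, and several of them carry chondroitin, dermatan or keratan sulfate chains. They bind collagen fibrils and set fibril diameter and spacing, and decorin and biglycan also bind growth factors such as TGF-beta. In peripheral nerve, collagen fibrils fill the endoneurium around the axons and the epineurium outside the fascicles. Fibroblasts are a main source of both the collagens and the SLRPs.

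Total counts were 16120518 to 18491379 per library in the implant group and 15897850 to 17990057 in NC. All 8 nerve markers tested (Schwann cell and myelin genes) were present. Their summed level was 15880, 1669 and 19010 CPM (counts scaled to a common library size, with TMM factors) in implant 1, implant 2 and implant 3. It was 1864, 37828 and 3165 CPM in NC 1, NC 2 and NC 3, so both groups were uneven on this sum and NC 2 was the high NC library. On the 3 measures that follow, NC 3 stood apart from the other NC libraries. Haemoglobin took 8.08% to 14.8% of the counts in implant libraries, and 1.19%, 1.02% and 25.2% in NC 1, NC 2 and NC 3. The adipocyte marker sum (8 of 8 markers tested) was 2056 to 4239 CPM in implant libraries, 1559 to 3879 CPM in NC 1 and NC 2, and 10764 CPM in NC 3. The endoneurial fibroblast marker sum (8 of 8 tested) was 2634 to 5339 CPM in implant libraries, 5279 to 5706 CPM in NC 1 and NC 2, and 910.2 CPM in NC 3. Log2 fold changes of members that turn on NC 3 are given with and without it.

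Fmod encodes fibromodulin, a keratan sulfate proteoglycan that binds type I collagen and takes part in fibril assembly and crosslinking. Fmod had 41.0, 54.0 and 49.6 CPM in implant 1, implant 2 and implant 3, against 102, 80.2 and 116 CPM in NC 1, NC 2 and NC 3. All 3 implant libraries lay below all 3 NC libraries, an order that 2.88% of the 13999 genes tested also showed. The means were 48.2 ± 6.61 CPM in implant libraries and 99.3 ± 17.8 CPM in NC (SD, n = 3 each), so the implant mean was 48.5% of the NC mean. The log2 fold change was -1.04, with an approximate 95% interval of -1.49 to -0.59, and it ranged from -1.18 to -0.92 when each library was left out in turn. Within a group, the highest Fmod level was 1.32 times the lowest in implant libraries and 1.44 times in NC. In such bulk samples, fewer cells that make Fmod and less Fmod RNA per cell cannot be told apart. The fibroblast marker sum (10 of 10 in the table, 9 tested), which overlapped between groups, was 1483 to 1933 CPM in implant libraries and 1617 to 1906 CPM in NC.

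**Figure D1:**
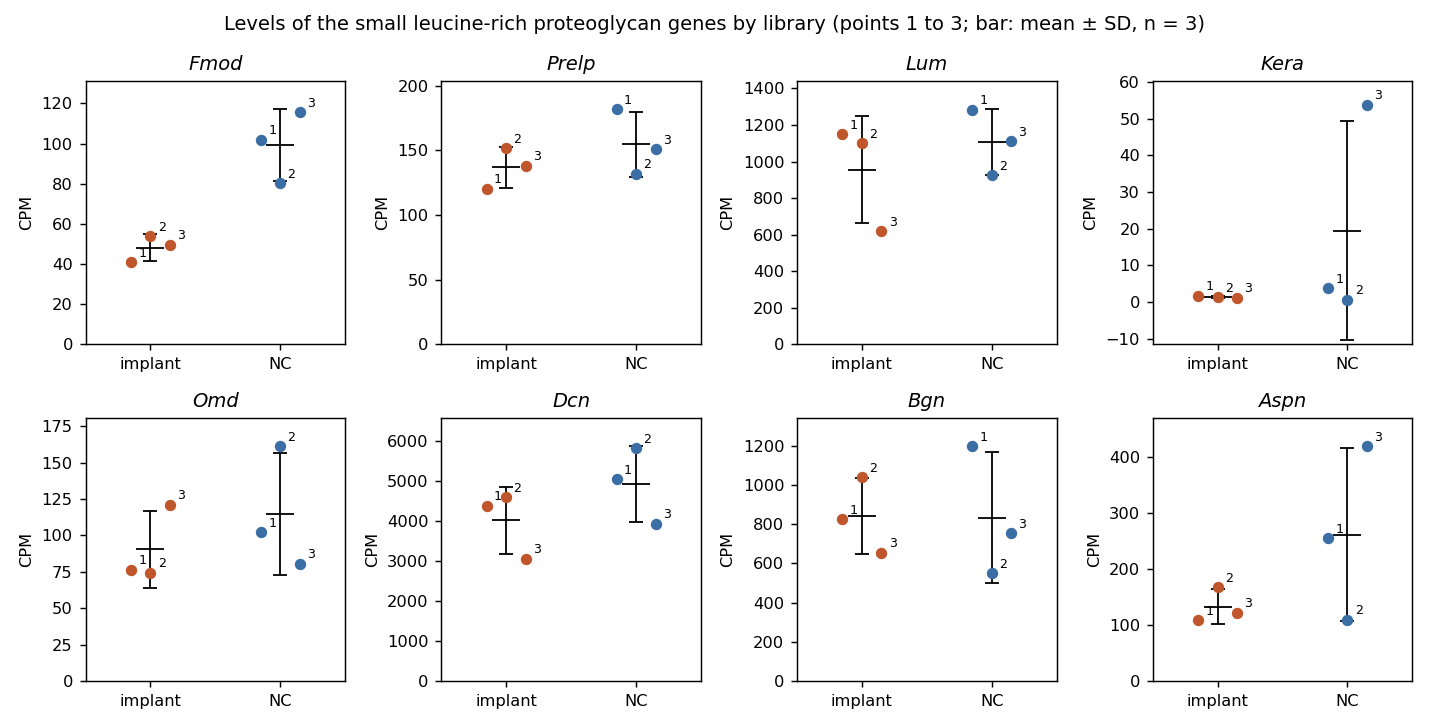
Levels of the 8 members in CPM (y axis, linear, a separate scale per gene) for the implant and NC groups; points are libraries 1 to 3, and bars are the mean ± SD (n = 3). For Fmod the implant points (41.0 to 54.0 CPM) lie below the NC points (80.2 to 116 CPM), for the other 7 genes the groups overlap, and for Kera the lower SD bar passes below 0 because NC 3 alone is high.

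The stretch before the start of Fmod is shown beside those of Aspn, the member whose pattern over the libraries was most like that of Fmod, and Kera, the member with the widest spread. Each is the 250 bases before the gene start in RefSeq (build GRCr8), 5′ to 3′ on the strand of the gene. The windows are chr13:48045317-48045566 on the plus strand for Fmod, chr17:15310470-15310719 on the minus strand for Aspn and chr7:34283850-34284099 on the plus strand for Kera. Capitals mark the matches to 5 motifs searched on both strands: the TATA box TATAAA, the GC box GGGCGG, the AP-1 site TGANTCA, the E-box CANNTG and the RUNX site AACCACA.
Fmod: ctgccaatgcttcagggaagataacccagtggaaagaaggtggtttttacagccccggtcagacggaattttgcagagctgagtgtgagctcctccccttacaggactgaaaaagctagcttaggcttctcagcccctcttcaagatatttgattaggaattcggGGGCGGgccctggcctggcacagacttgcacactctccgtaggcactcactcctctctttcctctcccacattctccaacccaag
Aspn: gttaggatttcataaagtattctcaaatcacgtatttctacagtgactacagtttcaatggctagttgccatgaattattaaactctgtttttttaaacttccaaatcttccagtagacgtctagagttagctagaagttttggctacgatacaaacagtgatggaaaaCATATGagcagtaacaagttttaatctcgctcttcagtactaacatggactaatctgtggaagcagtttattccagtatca
Kera: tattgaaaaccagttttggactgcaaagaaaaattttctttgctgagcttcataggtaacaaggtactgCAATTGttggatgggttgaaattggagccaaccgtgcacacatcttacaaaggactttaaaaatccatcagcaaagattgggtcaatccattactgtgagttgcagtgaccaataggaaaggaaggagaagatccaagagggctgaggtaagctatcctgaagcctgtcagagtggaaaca

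The Fmod window held a GC box that begins 85 bases before the start, a motif found in 30.5% of the 33469 RefSeq windows of the same length. The windows of Aspn and Kera each held 1 E-box, beginning 81 and 181 bases before the start, a motif found in 65.5% of all windows. No window of the 3 held a TATA box (12.9% of all windows), an AP-1 site (6.34%) or a RUNX site (4.59%). These matches describe the letters of the windows, and the data hold no measurement of binding there. The windows differ in base composition, with 52.8% G or C for Fmod, 34.8% for Aspn and 41.6% for Kera.

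The question for the other members was whether they were lower with the conduit as Fmod was. Of the 7 members other than Fmod, 6 had a negative log2 fold change, as did 53.0% of the 13999 genes tested, and the median of the 7 was -0.30, beside -0.01 over all genes tested. Leaving out each library in turn gave 5 to 7 negative members and a median of -0.44 to -0.19. None of the 7 genes separated the groups. Few genes did: 2.88% of the genes tested had all implant libraries below NC, and 2.81% had all above. These shares also stand beside the counts of separated genes in the lists below. By edgeR (quasi-likelihood F test, Benjamini-Hochberg adjusted over all genes), 0 of the 13999 genes passed (0%), and each of the other 7 members had an adjusted p of 1.00. At an unadjusted p under 0.05, edgeR found 241 genes (1.72%), and of the 7 members only Kera (0.0481) was among them. DESeq2 called 11 genes (0.0788%), none of them among the other 7 members, and limma-voom called 0. In the check on simulated data, 4 of 50 genes with a 2-fold change were recovered, and 42 of 50 with a 4-fold change. The check also gave 3 false calls. A count of 0 called, here and in the lists below, can therefore miss changes of 2-fold. In these libraries it can also miss larger ones. Kera, with a log2 fold change of -3.81, and the protease gene Mmp7, with -5.81, were not called by edgeR. A log2 fold change of -1 or lower was found for Fmod and Kera, and for 1.15% of all genes tested. A log2 fold change of -1, a 2-fold lower level, lay outside the approximate 95% intervals of Prelp, Lum and Bgn and inside those of Dcn, Omd, Aspn and Kera.

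Prelp, Lum, Kera and Omd belong with Fmod to one class of the family, in which several members carry keratan sulfate. Prelp, which anchors basement membranes to collagen, had 120.3, 152 and 138 CPM in implant libraries, against 182, 132 and 151 CPM in NC 1, NC 2 and NC 3. Its log2 fold change was -0.18 ± 0.17 (SE), with an interval of -0.59 to 0.23. The groups overlapped, and the interval was the narrowest among the members.

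Lum, which encodes the collagen-binding lumican, had 1150.1, 1101 and 617 CPM in implant libraries and 1284, 924 and 1110.1 CPM in NC. Its log2 fold change was -0.21 ± 0.29 (interval -0.92 to 0.50). Implant 3 was the low library, and without it the log2 fold change of Lum was 0.024. Implant 3 also had the lowest fibroblast marker sum (1483 CPM) and the highest skeletal muscle marker sum, 7471 CPM against 75.6 and 1502 CPM in the other implant libraries and 26.6 to 1209 CPM in NC (7 of 8 muscle markers in the table). The part of these in the Lum value was not tested.

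Kera, which encodes the keratocan of cornea and tendon, had 29, 23 and 20 counts in implant libraries and 73, 10 and 745 counts in NC. In CPM these were 1.70, 1.25 and 1.18 in implant libraries and 3.79, 0.578 and 53.9 in NC 1, NC 2 and NC 3. NC 3 was 14.2 times as high as the next library, and the lowest of all libraries was also in NC. Over the 6 libraries Kera spanned 93.2-fold, and 6.17% of the genes tested spanned 10-fold or more. The log2 fold change was -3.81 ± 1.54 with all libraries and -0.68 ± 0.80 without NC 3.

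Tendon markers were read beside Kera. Tnmd, which encodes tenomodulin, had 1.11, 4.999 and 6.37 CPM in implant libraries and 9.45, 1.62 and 68.0 CPM in NC. Scx, the transcription factor scleraxis of tendon cells, had 0.351, 1.03 and 0.708 CPM in implant libraries and 1.40, 0.578 and 4.27 CPM in NC, and was picked from the list after its values were seen. NC 3 was the highest library for Kera, Tnmd and Scx. It was also the highest for Egr1 but not for the other 3 genes of the tendon list, so that 3 of 6 had their highest level there. Thbs4 was highest in NC 1 (1186 CPM, against 733 CPM in NC 3), and Comp and Mkx were highest in implant 3 (36.9 CPM for Comp, against 30.9 CPM in NC 3). The sum of the whole list (6 of 6 tested, none at 0) was 634 to 1265 CPM in implant libraries and 730.4 to 1297 CPM in NC, with most of it from Thbs4. The part of tendon-like tissue in the Kera value was not tested.

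Omd encodes osteomodulin, a keratan sulfate proteoglycan known from mineralised matrix. It had 76.3, 74.2 and 121 CPM in implant libraries, against 102, 161 and 80.6 CPM in NC. The log2 fold change was -0.34 ± 0.32 (interval -1.13 to 0.44), and without NC 2 it was -0.01, while without implant 3 it was -0.61. Omd was highest in NC 2 and implant 3. These were also the libraries with the highest perineurial marker sum, which was 2339, 1403 and 4215 CPM in implant libraries and 1518, 3672 and 1395 CPM in NC (7 of 8 markers in the table, Lypd2 at 0 in all). Most of the sum came from Itgb4 (3246 CPM in implant 3 and 2602 CPM in NC 2), and 3 of the 6 markers tested had their highest levels in these libraries. Moxd1 was at its lowest in implant 3 (0.472 CPM) and Msln in NC 2 (8.09 CPM). NC 2 and implant 3 were also the highest libraries for the summed Schwann cell and myelin markers (37828 and 19010 CPM). Implant 1 followed on that sum with 15880 CPM, where Omd had 76.3 CPM. The part of perineurial cells or Schwann cells in the Omd value was not tested.

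Dcn, Bgn and Aspn form another class, and the products of Dcn and Bgn carry chondroitin or dermatan sulfate chains. Dcn, the decorin gene, had 4390.4, 4606 and 3064 CPM in implant libraries, against 5054, 5821 and 3939 CPM in NC. Its log2 fold change was -0.30 ± 0.29 (interval -1.004 to 0.41). The groups overlapped through NC 3, which lay below implant 1 and implant 2. Without NC 3 the log2 fold change of Dcn was -0.44 ± 0.28.

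Bgn, which encodes biglycan, had 826, 1039.6 and 655 CPM in implant libraries, against 1199, 548 and 753 CPM in NC. Its group means were 840.1 ± 193 CPM in implant libraries and 833 ± 333 CPM in NC (SD, n = 3 each), with a log2 fold change of 0.01 ± 0.34. The highest and the lowest library of Bgn were both in NC. The sign of this value changed without implant 2 (-0.17), NC 2 (-0.22) or NC 3 (-0.06), and it was 0.38 without NC 1.

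Aspn encodes asporin, which has a stretch of aspartate residues and lacks the usual sugar chains. It had 109, 167 and 122 CPM in implant libraries, against 255, 109 and 419 CPM in NC 1, NC 2 and NC 3. The means were 133 ± 30.8 CPM in implant libraries and 261 ± 155 CPM in NC (SD, n = 3 each), and the log2 fold change was -0.98 ± 0.48 (interval -2.15 to 0.19). The size was thus close to that of Fmod, but NC 2 lay within the implant range. Without NC 3 the log2 fold change of Aspn was -0.46 ± 0.40, and without NC 2 it was -1.35 ± 0.30.

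**Figure D2:**
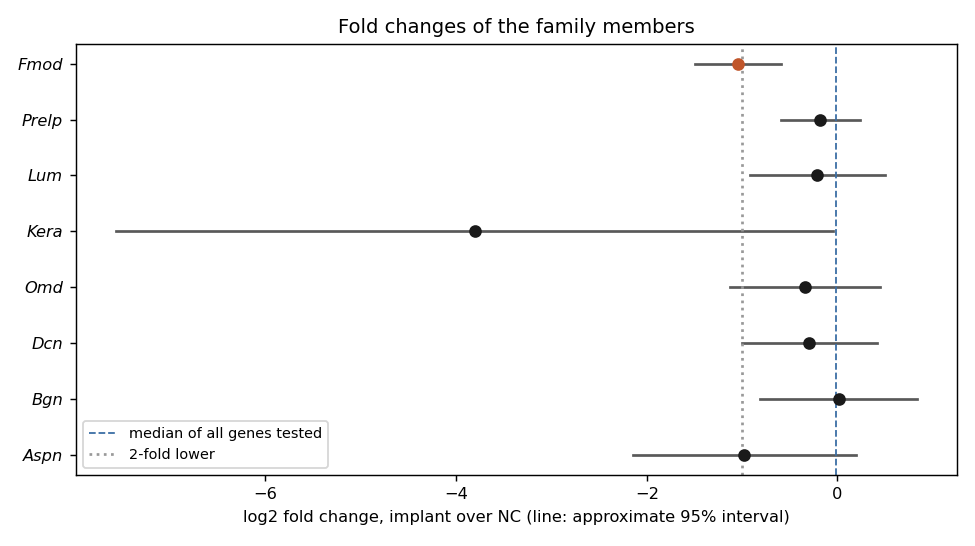
Log2 fold change of implant over NC for the 8 members (x axis; points, with lines for the approximate 95% interval), the median of all genes tested (dashed, -0.01) and a 2-fold lower level (dotted, -1). Fmod (-1.04), Aspn (-0.98) and Kera (-3.81) sit at or beyond about -1 with intervals of different width, and the other 5 genes lie between -0.34 and 0.01.

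Ratios inside a library do not depend on how libraries are scaled. Per 100 counts of Prelp, Fmod had 34.0, 35.6 and 36.0 counts in implant libraries, against 56.1, 60.9 and 76.7 in NC. This ratio was nearly the same in the 3 implant libraries and lay below every NC library. Per 100 counts of Bgn, Fmod had 4.96, 5.19 and 7.58 counts in implant libraries and 8.51, 14.6 and 15.4 in NC, again with no overlap. Per 100 counts of Lum, Fmod had 3.56, 4.90 and 8.04 counts in implant libraries and 7.94, 8.68 and 10.4 in NC, and implant 3 reached above NC 1. Against Dcn, Omd, Aspn and Kera the groups overlapped. Since Fmod chose the set, these ratios are a description.

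**Figure D3:**
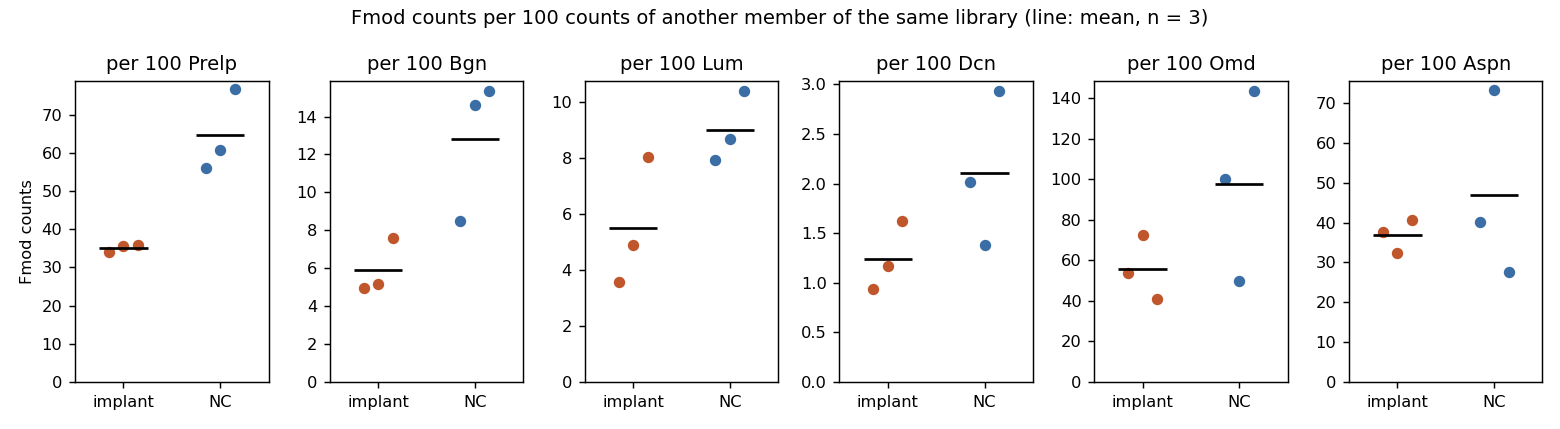
Fmod counts per 100 counts of another member in the same library (y axis, linear from 0, a separate scale per gene) for the implant and NC groups; points are libraries and lines are means (n = 3). The groups are apart for Prelp (34.0 to 36.0 in implant libraries, 56.1 to 76.7 in NC) and for Bgn, and overlap for Lum, Dcn, Omd and Aspn.

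All 8 members together took 0.712%, 0.716% and 0.459% of the counts in implant libraries and 0.960%, 0.846% and 0.509% in NC. Counts were not corrected for transcript length, so levels are not ranked between genes. Fmod made up 0.610%, 0.750% and 1.04% of the counts of the 8 members in implant libraries and 1.25%, 1.03% and 1.75% in NC. Implant 3, where Dcn, Lum and Bgn were at their lowest among the implant libraries, thus lay close to NC 2 on this measure, with exact 95% binomial intervals of 0.973% to 1.11% in implant 3 and 0.978% to 1.09% in NC 2, which cover counting error only. The share of Dcn was 64.6 ± 0.730% in implant libraries and 65.4 ± 8.29% in NC (SD, n = 3 each), and that of Aspn was 2.17 ± 0.490% in implant libraries and 3.62 ± 2.502% in NC. The Aspn share in implant libraries over that in NC was 0.598 with all libraries and 0.958 without NC 3. For the Fmod share, which overlapped between the groups, the same ratio was 0.597 with all libraries and 0.703 without NC 3.

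Likeness between members was measured as the root mean square difference of their log2 CPM over the 6 libraries, each gene centred on its own mean. Dcn and Lum were the closest pair (0.28 log2 units), followed by Bgn and Prelp (0.29) and Lum and Bgn (0.30). Fmod was closest to Aspn (0.44) and Prelp (0.45), and Kera was at least 1.42 from every other member. Among 11219 candidate genes the 5 most like Fmod were Aox1 (0.18), Bcar3 (0.21), Map7d3 (0.21), Thrb (0.24) and MGC109340 (0.25), while Aspn ranked 432 and Prelp 595. Aox1, an aldehyde oxidase, had 23.8, 37.7 and 24.1 CPM in implant libraries and 58.3, 38.9 and 64.0 CPM in NC. Thrb, a thyroid hormone receptor, had 13.2, 14.9 and 18.7 CPM in implant libraries and 25.2, 18.4 and 36.5 CPM in NC. A pattern chosen to be like that of Fmod carries its difference between the groups by construction, so no test was made.

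**Figure D4:**
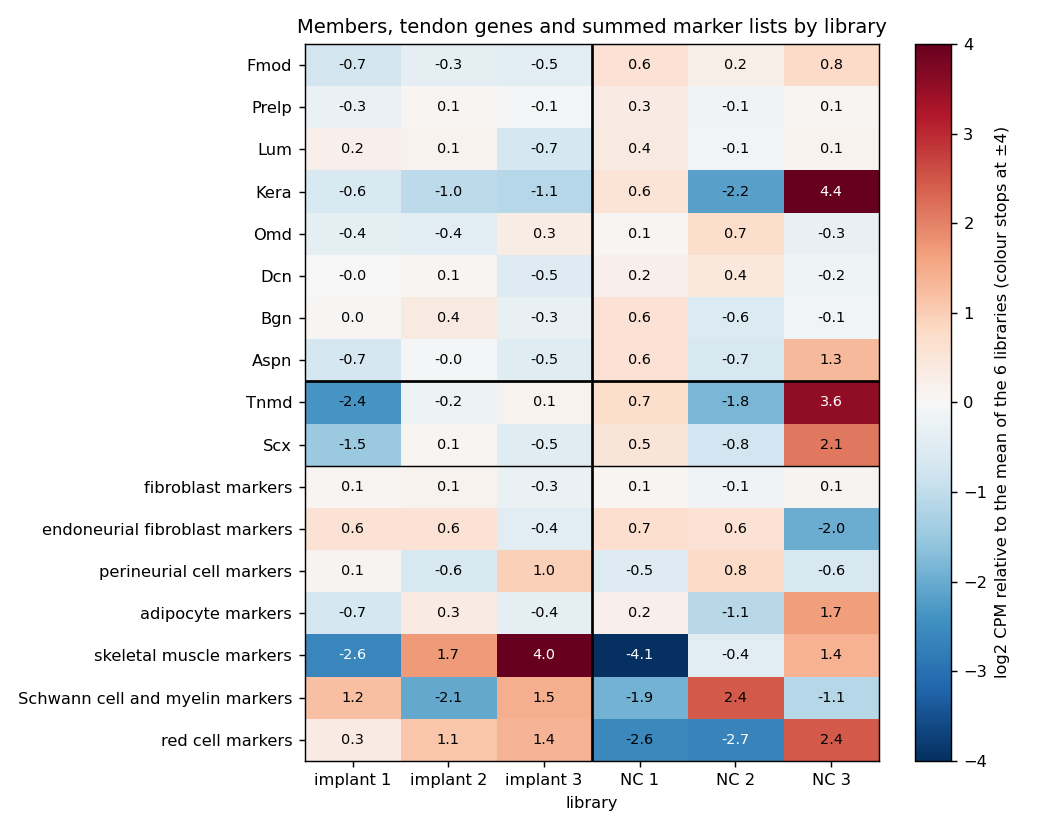
Log2 CPM relative to the mean of the 6 libraries (colour and printed value) for the 8 members, the tendon genes Tnmd and Scx, and the summed levels of 7 marker lists; columns are the implant libraries and then the NC libraries. NC 3 is the highest library for Kera, Tnmd, Scx, Aspn, Fmod, the adipocyte sum and the red cell sum, and the lowest for the endoneurial fibroblast sum. Tnmd and Scx do not stand for the whole tendon list, whose sum is not shown. On the same scale that sum is 0.44 in NC 1, 0.40 in implant 1 and 0.16 in NC 3.

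Members of the family lie in clusters in the rat genome. In the RefSeq annotation (GRCr8), Prelp and Fmod are neighbours on chromosome 13, with Optc on the other side of Prelp. Dcn, Lum, Kera and Epyc follow each other on chromosome 7, and Ogn, Omd, Aspn and Ecm2 lie on chromosome 17 within the span of Cenpp. The libraries were made without strand marking, so reads of Omd or Aspn and of Cenpp cannot be told apart by strand, and Cenpp had 4 to 15 counts per library. Fmod, Dcn, Prelp and Aspn also overlap RefSeq genes that are not in the table (LOC120096251, LOC120093566, LOC102557118 and LOC108348523). Reads of these genes could not be assessed. The 4 protein-coding neighbours on each side of Fmod that are in the table were read beside it. Of these 8, 0 lay below NC in all implant libraries, an order shown by only 2.88% of all genes tested. Their log2 fold changes ran from -0.56 to 2.11. On the far side of Fmod from Prelp, the antiproliferative gene Btg2 had 65.1, 72.8 and 44.4 CPM in implant libraries and 52.0, 50.5 and 135 CPM in NC. Next to it, the chitinase gene Chit1 had 1.93, 2.39 and 3.07 CPM in implant libraries and 1.298, 1.56 and 1.45 CPM in NC, with all implant libraries above NC, an order found in 2.81% of the genes tested.

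Of 8 other SLRP genes on a fixed list, 6 were tested, with 5 negative, a median log2 fold change of -0.22, 0 called and overlap between the groups for each of the 6. Ecm2, which resembles the SLRPs in its repeats and adjoins Aspn, had 132, 135 and 260 CPM in implant libraries and 215, 254 and 212 CPM in NC. Its order was like that of Omd in that implant 3 and NC 2 were the highest libraries. Tsku, a secreted modulator of growth factor signalling, had 22.7, 29.6 and 15.4 CPM in implant libraries and 27.1, 15.5 and 30.9 CPM in NC.

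The collagens that SLRPs bind were tested as 12 fibrillar and fibril-associated genes. Of these, 11 had a negative log2 fold change with a median of -0.13, 0 were called and 0 separated the groups, and the median ran from -0.27 to 0.01 when each library was left out. Col1a1, a chain of type I collagen, had a log2 fold change of -0.11 ± 0.30, and Col3a1, of type III collagen, -0.14 ± 0.33. Col11a1, a chain of the minor fibrillar collagen XI, had the lowest value (-1.17 ± 0.67). It had 39.1, 49.4 and 11.9 CPM in implant libraries and 56.6, 36.0 and 134 CPM in NC. NC 3 was the highest library, as it was for Kera, and had 2.37 times the Col11a1 level of the next library.

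Enzymes that process and crosslink collagen had 10 of 18 tested genes negative, with a median of -0.01. Lox, a lysyl oxidase, had 21.0, 30.2 and 12.5 CPM in implant libraries and 39.9, 20.2 and 31.9 CPM in NC, with overlap. Serpinh1, the collagen chaperone HSP47, had a log2 fold change of -0.17 ± 0.32. No gene of this list was called or separated the groups.

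Enzymes that build the linker and the chondroitin and dermatan sulfate chains had 14 of 22 tested genes negative, with a median of -0.05, and 0 were called. Xylt1, a xylosyltransferase that starts the chain on the core protein, had 15.3, 12.3 and 18.2 CPM in implant libraries and 21.6, 19.1 and 25.7 CPM in NC. It was the only gene of the list with all implant libraries below NC (log2 fold change -0.54 ± 0.20, edgeR adjusted p 1.00), an order shown by 2.88% of all genes tested. Dse, the epimerase that makes dermatan sulfate, had 57.8, 76.8 and 59.6 CPM in implant libraries and 76.6, 49.6 and 116 CPM in NC, with overlap. Among 8 tested enzymes of keratan sulfate and tyrosine sulfation, 5 were negative and the median was -0.05. Chst1, a keratan sulfate sulfotransferase, had a log2 fold change of 0.26 ± 0.34.

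Proteases reported to cleave SLRPs had 7 of 15 tested genes negative, with a median of 0.03, and 2 had all implant libraries below NC, an order shown by 2.88% of all genes tested. Adamts5, an aggrecanase, had 49.2, 52.8 and 46.0 CPM in implant libraries and 65.0, 70.9 and 83.3 CPM in NC (log2 fold change -0.57 ± 0.14, edgeR adjusted p 1.00). The other was Mmp7, which encodes matrilysin and had 0, 0 and 1 counts in implant libraries and 20, 40 and 15 counts in NC. Mmp7 was among the 11 genes that DESeq2 called (adjusted p 0.0174), while its edgeR adjusted p was 1.00. Mmp2, a gelatinase, had a log2 fold change of -0.20 ± 0.35, and Mmp9 had 30.7, 2.93 and 80.4 CPM in implant libraries and 1.25, 13.6 and 5.93 CPM in NC.

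Receptors and growth factors bound by SLRPs had 11 of 19 tested genes negative and a median of -0.02, with no gene called or apart between the groups. The TGF-beta receptor gene Tgfbr2 was nearly level over the libraries, with 700 (699.9), 617 and 629 CPM in implant libraries and 643, 659 and 642 CPM in NC. Tgfb1, a ligand that decorin binds, had a log2 fold change of 0.24 ± 0.17. Other matrix and cell-surface proteoglycans had 8 of 18 tested genes negative and a median of 0.07. Among these, Vcan, the large hyaluronan-binding proteoglycan versican, had 270.1, 271 and 138 CPM in implant libraries and 234, 104 and 133 CPM in NC (log2 fold change 0.53 ± 0.40), with overlap.

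**Figure D5:**
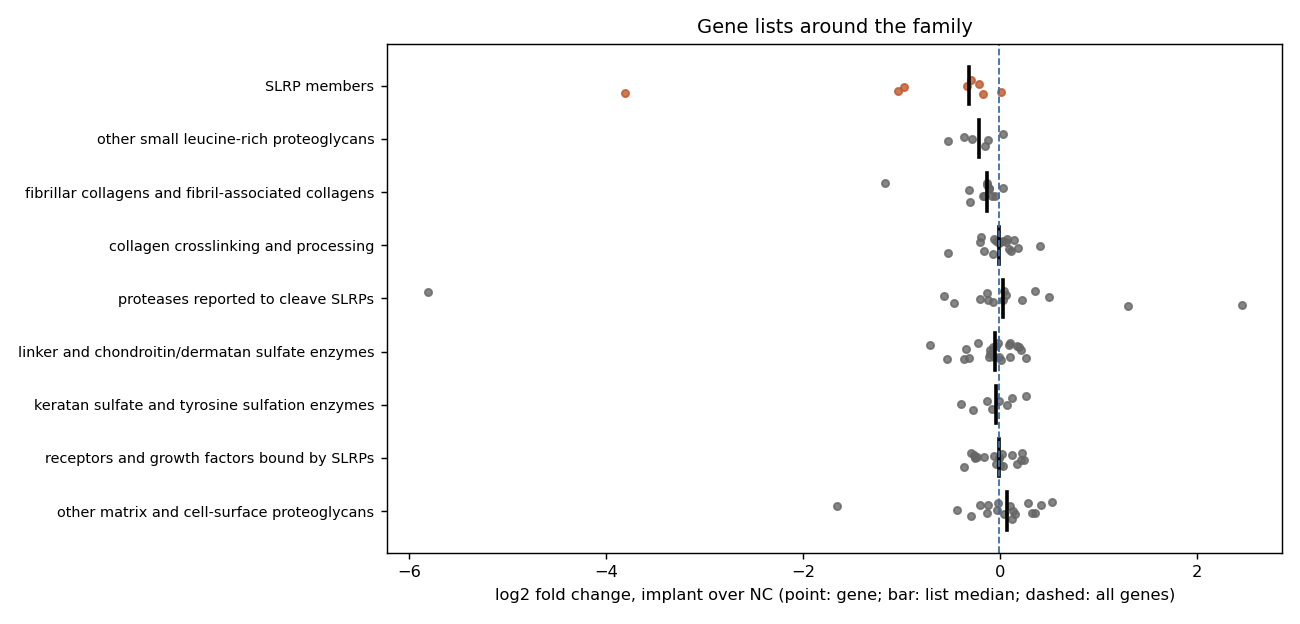
Log2 fold change of implant over NC (x axis) for each tested gene (points) of 9 lists, with list medians as bars and the median of all genes tested as a dashed line (-0.01); vertical scatter within a list has no meaning. A single protease point near the left edge is Mmp7, which is at 0 in 2 implant libraries. The list medians lie between -0.32 for the 8 members, Fmod included, and 0.07 for other proteoglycans, and the members at the low end are Fmod, Aspn and Kera.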

How the data were processed

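Polyadenylated RNA was sequenced from 3 implant and 3 NC libraries with a NEBNext Ultra kit, per the labels' protocols. Tools listed without a role in the submitters' processing notes are HISAT2, DESeq2, StringTie 1.3.1 and Bowtie2 2.2.8. Counter, annotation and genome build: not given in the sources used here. As deposited by the authors, each value is an estimated count per gene (some are not whole), with no normalization. The treated columns lack GDNF in their name and were given to the only group with that material. Values of the 8 members were whole in every library. Counts were rounded, filtered (filterByExpr, 13999 genes left), scaled by TMM and tested with edgeR 4.0.16 in R 4.3.3 (quasi-likelihood, two-sided, group as the only term, adjusted p under 0.05, checked on simulated data). The SE is the log2 fold change over the root of F, and intervals from it are approximate. Alternatives were RLE, upper-quartile and trimmed TMM scaling, DESeq2 1.42.0, limma-voom 3.58.1, 2 other filters, a replicate block and each library left out. Haemoglobin as a covariate was added later. Promoter windows came from RefSeq (GRCr8), where 7 of the 10 members matched. Members and lists were chosen with earlier results of these data known. By rule, the text names all members and, per list, the 3 genes with the highest mean CPM and those with the highest and lowest log2 fold change (mean log2 CPM of at least 2). Some of these are summarised, and Scx, Btg2, Chit1, Mmp7, Mkx, Moxd1 and Epyc were named after their values were seen. Figures used matplotlib 3.10.9.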

Additional observations from a re-analysis of the deposited data

How the results depend on the processing

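The log2 fold changes of the 8 members were compared under 15 alternatives by sign and side of the threshold, not by size. Without NC 3, Kera went from -3.81 to -0.68 and Aspn from -0.98 to -0.46, and both counted as kept. Outside DESeq2, the lowest adjusted p of a member was 0.299 (Fmod, edgeR with the haemoglobin covariate). The side of the threshold therefore says little there, and the count mainly covers the sign. Over 120 values, sign and side of the threshold were kept in 113. The exceptions were Bgn, which was below 0 with RLE scaling (-0.00097), with DESeq2 (-0.00097) and without implant 2, NC 2 or NC 3 (range over libraries left out -0.22 to 0.38), Lum, which was above 0 without implant 3 (range -0.35 to 0.024), and Fmod, which passed the threshold in DESeq2 and in no other alternative, and whose values chose the set, so that this is no test of it. The cause was not tested. DESeq2 called 5 genes higher and 6 lower where edgeR called 0, and no other alternative called a gene. With the haemoglobin covariate, chosen after seeing the data, the median of the 7 members other than Fmod was -0.18. In that fit Dcn was at -0.07, Omd at -0.03, Lum and Prelp at -0.18 and Bgn at 0.09. Aspn was at -1.39 and Kera at -4.01, beside Fmod at -1.20. The share of Kera among the member counts, as implant mean over NC mean, was 0.0777 with all libraries and 0.836 without NC 3. Deviations from the group mean correlated at 0.099, -0.718 and 0.0553 between same-numbered libraries, for numbers 1, 2 and 3. Between libraries of unlike number they correlated at -0.607 to 0.517. With 3 libraries a group, these values cannot decide whether same-numbered libraries belong together. With the replicate block, Fmod was at -1.04, Aspn at -0.82 and Kera at -1.79, and 0 genes were called. With 3 libraries a group, the approximate intervals of Aspn, Dcn, Omd and Kera hold both a 2-fold lower level and, except for Kera, no difference.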

Other observations

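Epyc, the SLRP gene next to Kera, was not among the members. It had 38, 7 and 60 counts in implant libraries and 4, 109 and 4 counts in NC. Its highest library was NC 2, followed by implant 3 and implant 1, which is the order of the summed Schwann cell and myelin markers for these libraries (37828, 19010 and 15880 CPM). In the other libraries Epyc had at most 7 counts, where that sum was 1669 to 3165 CPM. Postn, which encodes periostin, a matrix protein that binds collagen, had 946, 1686 and 522 CPM in implant libraries and 1522, 371 and 2709 CPM in NC. Its highest and lowest libraries, NC 3 and NC 2, were also those of Kera. Between these the orders differed, with implant 2 above NC 1 for Postn and below it for Kera (1.25 and 3.79 CPM). The myofibroblast and smooth muscle marker sum, which includes Postn (8 of 8 tested), was highest in NC 3 (3708 CPM) and lowest in implant 3 (1462 CPM). The orders are given as values, with no test.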
